A study of Homo sapiens with 10 samples.

Results

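Chromatin immunoprecipitation and sequencing (ChIP-seq) with an antibody to H4R3me2s, histone H4 symmetrically dimethylated at arginine 3, gave lists of enriched stretches (peaks) in SH-SY5Y, a human neuroblastoma line, and the peaks described here are those that lie in noncoding genes and in no protein-coding gene. A peak was counted as noncoding-only when it overlapped the span of a RefSeq gene of any biotype other than protein-coding (GRCh38, chromosomes 1 to 22) by at least 1 bp and touched no protein-coding span extended by 2 kb on each side. Of 63305 peaks in the 9 libraries called against Input, 9539 met this rule, and with the authors' 2 pooled lists added they numbered 11960 of 80351. BDNF+Dox cells (n = 3) were given retinoic acid (10 µM, 6 days) and then the neurotrophin BDNF (50 ng/ml, 4 days), with 3 days of doxycycline at 1 µg/ml, which induced α-synuclein through a Tet-on construct. BDNF cells (n = 3) had the same differentiation without doxycycline, and Naive cells (n = 3) had none of these agents. The labels give 10% fetal calf serum for growth and 3% with retinoic acid, so serum may also differ between Naive and differentiated cells. All groups grew in medium with zeocin, and 1 Input library without antibody served all 9 ChIP libraries. No group with doxycycline but without the construct was analysed here, so the drug and the protein cannot be told apart. The labels do not state that replicates were separate cultures, so the p-values speak to variation among these samples alone, and that variation may be technical.

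H4R3me2s is written mainly by the arginine methyltransferase PRMT5 and is mostly associated with gene repression. Long noncoding RNA (lncRNA) genes are transcribed without encoding a protein, and many of them act on, or lie beside, genes of neural development. Some are named for their position, such as antisense (-AS) and divergent (-DT) genes that start at or run against a protein-coding gene, while LINC genes lie between genes and LOC genes carry no approved name.

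The libraries kept between 17164402 and 18928589 reads after removal of duplicates, and the Input 17074000. Peaks were called by the authors at p of 0.01, a permissive threshold. A q-value of 0.05 or less was held by 35 of the 9539 noncoding-only library peaks (0.367%), against 182 of all 63305 peaks (0.287%). Gene models here are spans, so exons and introns were not told apart. Base composition and how uniquely reads map were not tested, since peak sequence was not read from a genome.

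Regions around the transcription starts of lncRNA genes were searched for noncoding-only peaks, and the sequences of some that overlapped one are shown to make their composition visible. RefSeq promoters (250 bases before to 50 after the start, GRCh38.p14) of 6122 lncRNA genes were clear of protein-coding spans. Of these, 27 overlapped a noncoding-only library peak and 1, that of LOC105370974, did so in 2 libraries. Only the 50 bases after the start lie in the gene itself. A peak wholly before the start therefore counts only where another noncoding gene covers it. The rule itself thus keeps this number low, and it says nothing on whether peaks avoid starts. The 27 had a median GC content of 38.3% and 2 CG dinucleotides, against 46.3% and 3 in all 6122. Below are the start region found in 2 libraries, the one with the strongest peak by p in each group, and the one with the strongest pooled peak over BDNF, each written 5′ to 3′ on the strand of the gene with the bases inside the peak in capitals.
LOC105370974: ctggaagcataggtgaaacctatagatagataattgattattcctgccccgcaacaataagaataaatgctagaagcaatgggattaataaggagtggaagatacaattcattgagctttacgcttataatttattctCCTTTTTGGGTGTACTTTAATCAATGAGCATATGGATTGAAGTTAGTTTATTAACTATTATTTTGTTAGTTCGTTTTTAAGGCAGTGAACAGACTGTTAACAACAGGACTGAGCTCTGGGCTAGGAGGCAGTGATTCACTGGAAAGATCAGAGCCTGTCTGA
LOC124904458: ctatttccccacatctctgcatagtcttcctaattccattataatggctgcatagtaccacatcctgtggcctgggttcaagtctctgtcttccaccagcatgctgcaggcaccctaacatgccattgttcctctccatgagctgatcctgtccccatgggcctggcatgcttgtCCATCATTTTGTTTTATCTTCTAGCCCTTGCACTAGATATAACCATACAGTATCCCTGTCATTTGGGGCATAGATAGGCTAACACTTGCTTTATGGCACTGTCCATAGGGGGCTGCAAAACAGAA
LINC01099: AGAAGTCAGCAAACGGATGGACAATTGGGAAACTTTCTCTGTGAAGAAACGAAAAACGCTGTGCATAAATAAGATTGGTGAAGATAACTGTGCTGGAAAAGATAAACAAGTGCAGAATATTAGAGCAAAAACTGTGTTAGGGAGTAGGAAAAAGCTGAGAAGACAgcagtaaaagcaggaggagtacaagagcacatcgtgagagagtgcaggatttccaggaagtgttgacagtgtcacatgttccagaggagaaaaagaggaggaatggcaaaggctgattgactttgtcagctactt
LOC124904357: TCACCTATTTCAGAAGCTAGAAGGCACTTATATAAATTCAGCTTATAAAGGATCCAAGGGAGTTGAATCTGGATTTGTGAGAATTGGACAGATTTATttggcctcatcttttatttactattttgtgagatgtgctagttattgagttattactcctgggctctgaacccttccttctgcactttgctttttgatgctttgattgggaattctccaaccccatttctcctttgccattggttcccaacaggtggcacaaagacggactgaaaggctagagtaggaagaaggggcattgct
LOC107985843: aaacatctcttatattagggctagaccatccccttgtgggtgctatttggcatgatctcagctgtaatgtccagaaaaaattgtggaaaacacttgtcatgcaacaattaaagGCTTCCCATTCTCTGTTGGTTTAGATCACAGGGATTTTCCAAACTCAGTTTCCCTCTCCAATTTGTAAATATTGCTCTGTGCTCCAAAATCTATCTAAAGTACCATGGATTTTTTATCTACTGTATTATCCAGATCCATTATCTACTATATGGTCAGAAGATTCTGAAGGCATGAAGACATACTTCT
The LOC105370974 sequence lies on the minus strand of chr15:91803967-91804266, and its peaks were in BDNF+Dox replicate 2 (fold over Input 2.78) and Naive replicate 2 (fold 3.74, capitals). LOC124904458 is on the minus strand of chr1:175886687-175886986 and its peak had a fold of 4.15 in BDNF+Dox replicate 2. LINC01099 is on the minus strand of chr4:177907887-177908186, with a fold of 5.09 in BDNF replicate 3, and its peak lay wholly before the start. LOC124904357 is on the minus strand of chr18:64192773-64193072, with a fold of 5.29 in Naive replicate 1, and its peak too lay wholly before the start. LOC107985843 is on the minus strand of chr2:5605117-5605416, where the authors' deposited table gave a fold over BDNF of 2.78 with q = 0.85. None of these peaks had a q under 0.05.

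The number of noncoding-only peaks overlapped between the groups. BDNF+Dox libraries held 1516, 975 and 892 such peaks, BDNF libraries 865, 652 and 954, and Naive libraries 1733, 865 and 1087. Each group's range crossed the others', and the 3 did not differ beyond their spread (exact permutation of group labels, F ratio, p = 0.311, 0.368 after Benjamini-Hochberg adjustment over 4 measures). The ratio of geometric means was 1.35 for BDNF+Dox over BDNF (exact two-sided permutation p = 0.2), 0.932 for BDNF+Dox over Naive (p = 0.7) and 0.691 for BDNF over Naive (p = 0.3), where 3 libraries against 3 cannot go below 0.1. Covered length gave the same picture, with 226 ± 80.8 kb in BDNF+Dox, 160 ± 36.1 kb in BDNF and 242 ± 79.7 kb in the Naive libraries (SD, n = 3 each; exact permutation p = 0.368).

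The share of a library's peaks that were noncoding-only varied little between libraries. It was 14.88%, 14.78% and 14.79% in BDNF+Dox, 15.3%, 15.4% and 14.7% in BDNF, and 15.15%, 16.02% and 14.93% in the Naive libraries. BDNF+Dox libraries all lay below all Naive libraries, with a difference of means of -0.547 percentage points (exact permutation p = 0.1, the smallest the design allows), which is not a call (over the 3 groups p = 0.304, adjusted 0.368). Among peaks outside protein-coding spans alone, the noncoding-only share was 26.5 ± 0.672% in BDNF+Dox, 25.8 ± 0.835% in BDNF and 25.3 ± 1.04% in the Naive libraries (SD, n = 3 each; exact permutation p = 0.271). That share was highest in BDNF+Dox, so the order of the groups depended on whether protein-coding peaks were in the denominator. The authors' fold over Input had a median of 3.39 ± 0.0802 in BDNF+Dox, 3.49 ± 0.0608 in BDNF and 3.50 ± 0.0738 in the Naive libraries (SD, n = 3 each; exact permutation p = 0.221).

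**Figure D1:**
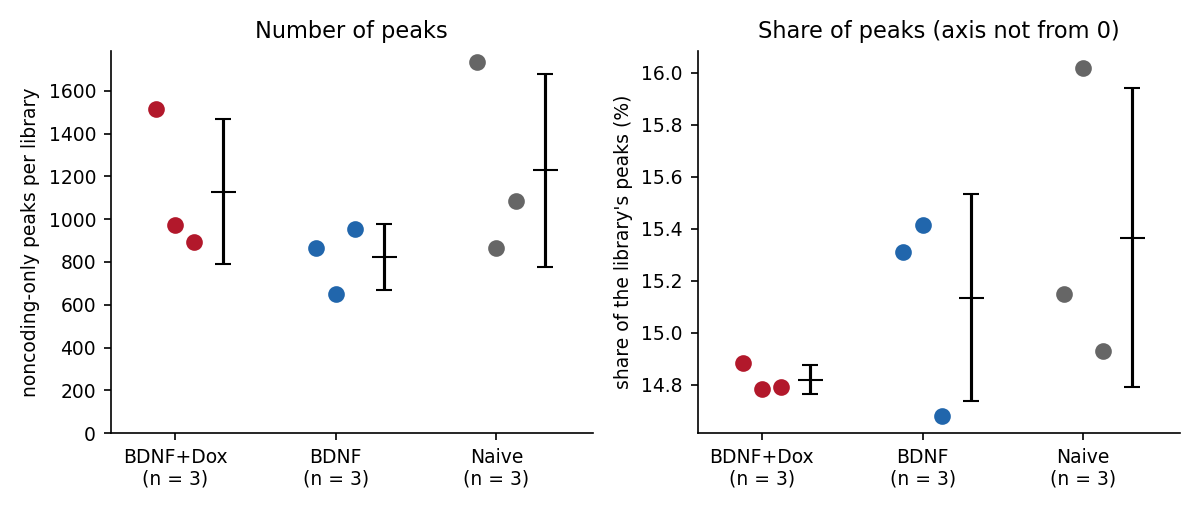
Noncoding-only peaks per library, as a number (left) and as a percent of the library's peaks (right), by group. Points are libraries and the black bars are the mean and SD of 3. The groups overlap in number, and the BDNF+Dox shares lie close together at 14.8% to 14.9%.

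Noncoding-only sequence took up 388 Mb, or 14.1% of the 2749 Mb of 1 Mb bins that hold a gene or a peak, while protein-coding spans with their flanks took up 46.0% and intergenic sequence 39.9%. Within libraries, peak density (peaks per Mb) in noncoding-only sequence was 1.19 times that in protein-coding spans (log2 ratio 0.25 ± 0.11, SD, n = 9 libraries), higher in 9 of 9 libraries (exact sign-flip permutation test, two-sided, p = 0.00391, adjusted 0.00781 over 4 measures). The density was 2.91 ± 0.874 per Mb in noncoding-only and 2.63 ± 0.706 in protein-coding sequence of BDNF+Dox libraries. It was 2.12 ± 0.400 and 1.78 ± 0.376 in BDNF libraries, and 3.17 ± 1.16 and 2.48 ± 0.886 in Naive libraries, in the same order of sequence (SD, n = 3 each). Against intergenic sequence the log2 ratio was -0.02 ± 0.07, above 0 in 4 of 9 libraries (exact permutation p = 0.379). For peak height no difference was called, and the median fold of noncoding-only peaks minus that of all other peaks was -0.0139 ± 0.0402 (SD, n = 9; exact permutation p = 0.359). All 9 libraries share 1 Input, and an exact sign-flip p of 0.00391 is the smallest that 9 libraries can give. In the authors' pooled lists the order was the other way. Noncoding-only sequence held 3.47 peaks per Mb over BDNF and 2.77 over Naive, against 3.56 and 2.98 in protein-coding spans and 3.30 and 2.49 in intergenic sequence.

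Peak density followed gene length. In lncRNA genes over 100 kb (952 genes, 172 Mb), density was 3.24 ± 1.11 peaks per Mb, or 1.16 ± 0.0593 times that of intergenic sequence in the same library, higher in 9 of 9 (SD, n = 9; exact sign-flip permutation p = 0.00391, adjusted 0.00586 over 12 gene sets). In lncRNA genes of 20 to 100 kb (4188 genes) the ratio was 0.967 ± 0.0615, above 1 in 2 of 9 libraries (exact permutation p = 0.137, adjusted 0.137). In lncRNA genes of 2 to 20 kb (10447 genes) it was 0.681 ± 0.105, above 1 in 0 of 9 (exact permutation p = 0.00391, adjusted 0.00586). Under 2 kb, 2208 lncRNA genes held 19 peaks in all 9 libraries together. In these sets each base was given to the longest gene covering it and a peak to its midpoint. Intergenic sequence was all that remained of the 1 Mb bins, and assembly gaps were not taken out, here or in the other ratios to it. Its density may therefore be too low in all 9 libraries alike, and the part of this in the ratios was not tested.

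The same order by length was present in protein-coding genes, and at each length lncRNA genes were denser. Protein-coding genes had 0.945 ± 0.1005 times the intergenic density over 100 kb, 0.679 ± 0.0988 at 20 to 100 kb and 0.441 ± 0.103 at 2 to 20 kb (SD, n = 9 libraries). The lncRNA density was 1.24 ± 0.103 times the protein-coding density over 100 kb, 1.44 ± 0.134 times at 20 to 100 kb and 1.58 ± 0.240 times at 2 to 20 kb. Each of these ratios was above 1 in 9 of 9 libraries (exact sign-flip permutation p = 0.00391, adjusted 0.00391 over the 3 lengths).

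**Figure D2:**
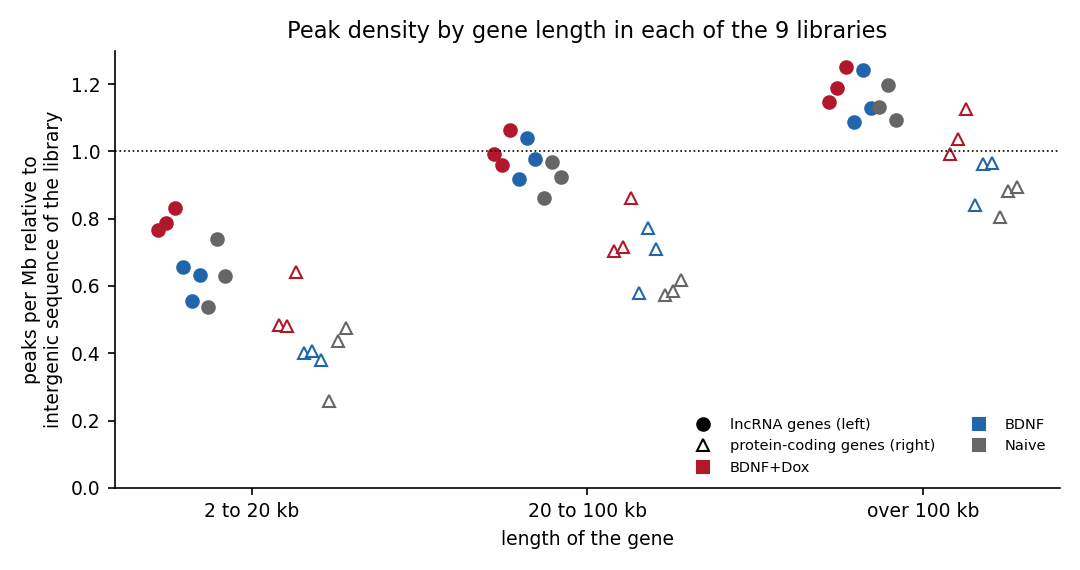
Peak density relative to the intergenic sequence of the same library (dotted line at 1) for lncRNA genes (filled circles, left) and protein-coding genes (open triangles, right) in 3 length classes. Each point is 1 of 9 libraries, coloured by group. lncRNA genes over 100 kb lie above 1 in all 9 libraries, and genes of 2 to 20 kb of both kinds lie below it.

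Positions within genes showed a similar dependence on length. Over all noncoding genes, 9.27 ± 0.956% of noncoding-only peaks had their place within 2 kb of a gene end, while these ends made up 13.6% of the sequence, a difference of -4.32 ± 0.956 percentage points that was negative in 9 of 9 libraries (exact sign-flip permutation p = 0.00391, adjusted 0.00781 over 4 measures). In 3048 lncRNA genes of 20 kb or more, the difference was -0.337 ± 0.908 percentage points, negative in 5 of 9 libraries (exact permutation p = 0.281). There, 196 of 4562 peaks lay near an end. In these long genes density was 2.47 ± 1.12 peaks per Mb in the first 1 kb after the start, 3.01 ± 1.4996 at 1 to 2 kb, 2.30 ± 0.897 at 2 to 5 kb and 2.97 ± 0.745 at 50 to 100 kb (SD, n = 9).

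By class of gene, LOC genes held 5171 of the 9539 peaks, LINC genes 2193, antisense genes 637, divergent genes 341, microRNA host genes 157 and other named lncRNA genes 348. Together lncRNA genes held 8871 (93.0%), pseudogenes 577 (6.05%) and immune receptor and other compound loci 84. LINC genes had 1.1002 ± 0.0800 times the intergenic density, higher in 8 of 9 libraries (SD, n = 9; exact sign-flip permutation p = 0.00781, adjusted 0.0208 over 8 classes), and with a 10 kb flank around protein-coding genes this call was lost (p = 0.0547). LOC genes were at 1.02 ± 0.0567, antisense genes at 0.968 ± 0.161, divergent genes at 0.964 ± 0.166, microRNA host genes at 1.02 ± 0.205 and other lncRNA genes at 0.893 ± 0.223 times, with no call (exact permutation, adjusted p from 0.35 to 0.793). Pseudogenes, decayed gene copies, had 0.624 ± 0.0876 times the intergenic density and were lower in 9 of 9 libraries. Immune receptor and other compound loci were at 0.650 ± 0.181 times, also lower in 9 of 9 (exact permutation, adjusted p = 0.0156 for each). Reads from near-identical copies may be lost or misplaced, so pseudogene values are uncertain. Class values were not adjusted for gene length. The 15727 pseudogenes held 40.8 Mb of noncoding-only sequence and the 2264 LINC genes 83.7 Mb, and lncRNA genes of 2 to 20 kb were at 0.681 times. The part of length in the pseudogene and LINC values was not tested. Without pseudogenes the noncoding-only density stood at a log2 ratio of 0.05 over intergenic sequence (exact permutation p = 0.0898).

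Of the 8 classes, antisense genes had the lowest p between groups. Their density relative to intergenic sequence was 1.01, 1.14 and 1.32 in BDNF+Dox libraries, 0.886, 0.842 and 0.867 in BDNF libraries, and 0.865, 0.884 and 0.903 in Naive libraries. Every BDNF+Dox library lay above every library of both other groups. Over the 3 groups the exact permutation p was 0.0179, and 0.196 after adjustment over the 8 classes and 3 lengths, so the difference was not called. Peaks carry no strand, and those in sequence that an antisense gene shares with a protein-coding gene are left out by the rule. The unadjusted exact permutation p was 0.0607 without BDNF replicate 2, 0.0536 without BDNF replicate 3 or Naive replicate 2, and 0.0643 without Naive replicate 3. lncRNA genes of 2 to 20 kb showed a like order, at 0.795 ± 0.0335 in BDNF+Dox, against 0.614 ± 0.0532 in BDNF and 0.635 ± 0.101 in the Naive libraries (SD, n = 3 each; exact permutation p = 0.0536, adjusted 0.295). That set can share genes with the antisense class, and both are relative to the intergenic density of the library, so they are not separate measurements. LINC genes overlapped between groups, at 1.099 ± 0.0410 in BDNF+Dox, 1.09 ± 0.144 in BDNF and 1.12 ± 0.0497 in the Naive libraries (exact permutation p = 0.914). The share of peaks in protein-coding spans was also highest in BDNF+Dox, at 44.1 ± 1.53%, against 41.2 ± 1.76% in BDNF and 39.3 ± 1.23% in the Naive libraries. BDNF and Naive stood in the other order than for antisense genes. The intergenic share was 41.1 ± 1.49% in BDNF+Dox, 43.7 ± 1.66% in BDNF and 45.3 ± 1.32% in the Naive libraries (SD, n = 3 each). The part of these shares in the antisense result was not tested.

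**Figure D3:**
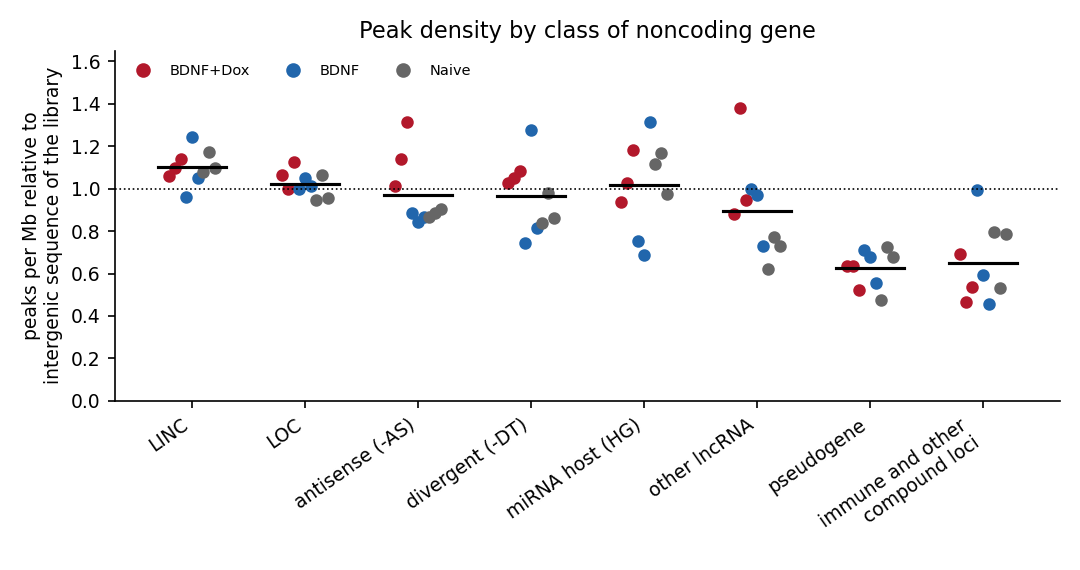
Peak density relative to the intergenic sequence of the same library (dotted line at 1) for 8 classes of noncoding gene. Each point is 1 of 9 libraries, coloured by group, and the black line is the mean of the 9. Pseudogenes lie below 1 in all 9 libraries, and the BDNF+Dox points of antisense genes, at 1.01 to 1.32, lie above the other 6.

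Density ranged widely over chromosomes. Chromosome 7 had 4.08 ± 1.41 noncoding-only peaks per Mb of noncoding-only sequence (SD, n = 9 libraries), followed by chromosome 4 at 3.54 ± 1.49 and chromosome 1 at 3.19 ± 1.06. Chromosomes 22, 19 and 20 were lowest, at 1.06 ± 0.386, 1.38 ± 0.663 and 1.46 ± 0.735. Intergenic sequence of the same chromosomes ran alongside, with 4.43 ± 1.80 per Mb on chromosome 7 and 1.21 ± 0.513 on chromosome 22. Chromosome 17 had 1.89 ± 0.552 per Mb in the libraries, and 4.70 per Mb in the pooled list over BDNF and 4.45 in that over Naive. Chromosome 7 had 5.87 and 4.34 in the same lists. Over all 22 chromosomes the density was 2.73 per Mb in the libraries and 3.47 and 2.77 in these lists. The pooled lists are merged reads over another control, and other sequence of chromosome 17 was not compared there. Chromosome copy number of the line was not tested. The 2 pooled lists share the BDNF+Dox reads.

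Places with a peak in several libraries were few. After overlapping peaks were merged, 217 noncoding-only regions had a peak in 2 or more libraries and 19 in 3 or more, against 1483 (2.4%) and 89 (0.144%) of all 61712 regions. Pseudogenes held 5.82% of all 9297 noncoding-only regions, 29 of the 217 (13.4%), 6 of the 19 (31.6%) and 1 of the 4 found in 4 or more libraries. The 6 lay in ANKRD20A3P, BAGE2, DPY19L2P3, NCOR1P3 and NBPF13P, with BAGE2 counted more than once. The families of ANKRD20A3P, BAGE2, DPY19L2P3 and NBPF13P have near-identical copies, and the part of this was not tested. The other 13 lay in lncRNA genes. Without BDNF+Dox replicate 1, BDNF replicate 3 or Naive replicate 3, 11 regions had a peak in 3 or more libraries.

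The region found in most libraries was in the uncharacterised lncRNA gene LOC105369435, at chr11:94234294-94234832 (GRCh38). It had a peak in 2 BDNF+Dox libraries (fold 4.08 in replicate 1 and 2.47 in replicate 2), in BDNF replicate 1 (fold 4.28) and in Naive replicates 1, 2 and 3 (folds 3.60, 3.31 and 4.80). The peaks of BDNF replicate 1 (q = 0.00442) and Naive replicate 3 (q = 0.00114) passed q of 0.05. No group was without a peak there, and the region was in neither pooled list.

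The next regions each had a peak in 4 libraries. LINC01667, at chr21:9791809-9792269, had folds of 3.41 in BDNF+Dox replicate 2, 3.65 in BDNF replicate 2, 3.50 in BDNF replicate 3 and 3.998 in Naive replicate 1. ANKRD20A3P, a pseudogene of an ankyrin repeat family, had its region at chr9:66133619-66134150. The region at chr14:19382753-19383112 lay in LINC01297 and in a locus that reads through the pseudogenes DUXAP10 and NBEAP6, and is uncertain for the same reason. Regions in 3 libraries included COL1A2-AS1, antisense to a collagen gene (chr7:94379056-94379329, folds 3.74 and 3.63 in BDNF+Dox replicates 1 and 2 and 3.52 in Naive replicate 3). KCNJ6-AS1, antisense to a potassium channel gene, had a peak in BDNF replicates 1 and 3 and Naive replicate 3 (chr21:37580008-37580447). SOX2-OT, which overlaps the gene of the neural stem cell factor SOX2, had 1 in each group (chr3:181677458-181677776, folds 3.47, 3.78 and 3.45 in BDNF+Dox, BDNF and Naive). LINC01592, LINC03007, LINC01877, NCOR1P3 and the pair LOC105370397 and LOC107984671 also had a region in 3 libraries.

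**Figure D4:**
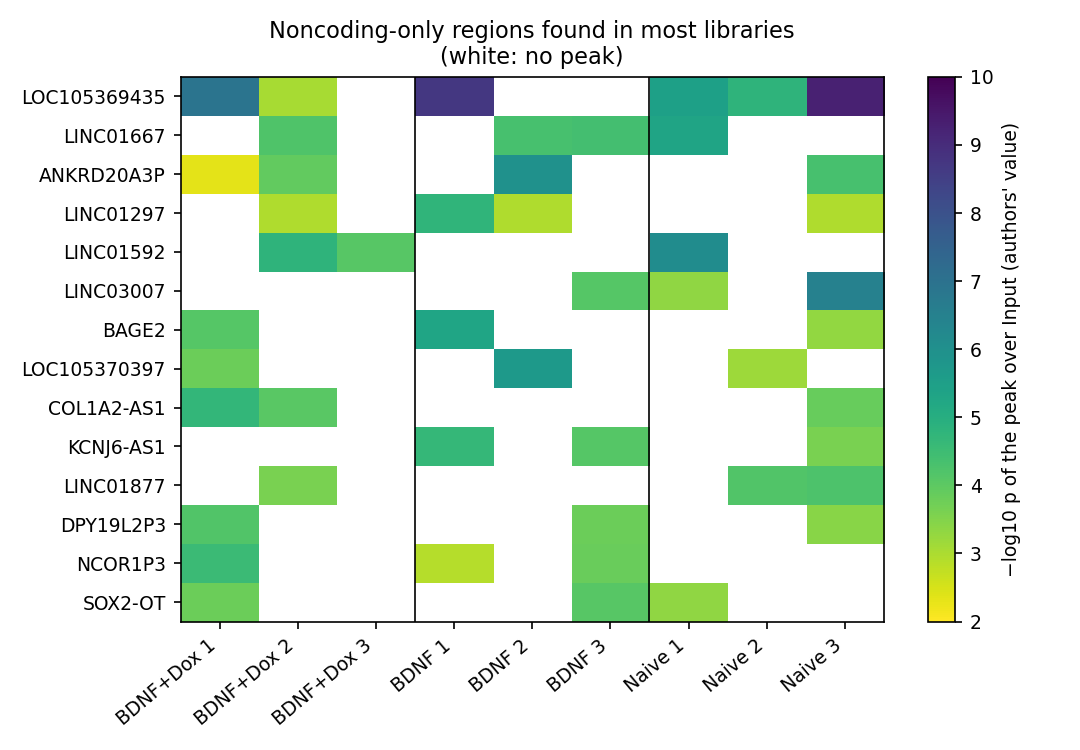
14 noncoding-only regions with a peak in 3 or more of the 9 libraries (rows, by gene) and the authors' −log10 p of the peak over Input in each library (colour; white is no peak). LOC105369435 has a peak in 6 libraries and each of the lower 10 rows in 3, spread over the groups.

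No noncoding-only region had a peak in all 3 libraries of one group and in none of another, in any of the 6 directions. Among all 61712 regions, 0 to 3 did so by direction, with 2 (0.00324%) found throughout BDNF+Dox and absent from BDNF and 3 (0.00486%) found throughout Naive and absent from BDNF. Counted over genes, whose peaks need not share a place, 24 of 25221 noncoding genes (0.0952%) had a peak in every BDNF+Dox library and in no BDNF library, against 101 of 44347 genes of any kind (0.228%). The reverse held for 7 noncoding genes (0.0278%), against 20 of any kind (0.0451%). For BDNF+Dox against Naive libraries there were 14 noncoding genes (0.0555%), against 66 of any kind (0.149%), and for the reverse 16 (0.0634%), against 42 (0.0947%). For BDNF against Naive libraries there were 6 noncoding genes (0.0238%), against 19 of any kind (0.0428%), and for the reverse 26 (0.103%), against 79 (0.178%). Genes of any kind include the protein-coding genes, and the sets were not matched for gene length. The median length over all noncoding genes was 3.01 kb, and a short gene can hold few peaks. BDNF libraries had the fewest peaks on average. The parts of gene length and of peak number in these counts were not tested.

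Of these genes, chosen after their values were seen, DIRC3 separated differentiated from Naive libraries. DIRC3, a lncRNA gene at chr2:217284019-217790443, had 5, 2 and 1 peaks in BDNF+Dox, 2, 1 and 1 in BDNF and 0, 0 and 0 in the Naive libraries. LINC02794 (chr1:48049771-48181386) had 3, 1 and 1 peaks in BDNF+Dox libraries and 0 in the 6 others, with 2 peaks in the pooled list over BDNF and 1 in that over Naive. The pooled lists merge the reads of these same libraries, so their peaks are not separate measurements. LINC01982 was without a peak in BDNF+Dox libraries, with 0 peaks in BDNF+Dox, 1, 2 and 2 in BDNF and 5, 0 and 0 in the Naive libraries.

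Of the 25221 noncoding genes with noncoding-only sequence, 3793 had a peak in at least 1 library, 360 in at least 5 and 14 in all 9.

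Genes with many peaks were long lncRNA genes of unknown role. LINC01317 (chromosome 2) had 4, 1 and 2 peaks in BDNF+Dox, 2, 1 and 7 in BDNF and 10, 3 and 7 in the Naive libraries. LOC105371657 (chromosome 1) had 4, 5 and 2, then 1, 4 and 3, then 9, 4 and 5 in the same order of groups. LOC124904475 on the same chromosome had 1, 1 and 2 in BDNF+Dox, 5, 2 and 3 in BDNF and 13, 1 and 7 in the Naive libraries. Groups overlapped in each of these. LOC105374557, LINC03000, LOC124902439, LOC105374524, LOC105370214 and LOC101928516 followed with 26 to 30 peaks each, and no difference between groups was called in these 9 (exact permutation of the F ratio, adjusted p from 0.443 to 0.893 over the 10 genes with most peaks).

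Among 41 lncRNA genes known from neurons or neuroblastoma, 30 were annotated with noncoding-only sequence, 16 of them (53.3%) had a library peak, and density over the list was 3.12 peaks per Mb per library. Over all noncoding genes 15.04% had a library peak. The median gene of the list had 2.14 peaks per Mb per library, against 0 over all noncoding genes, but its median length was 42.8 kb against 3.01 kb. The density of the list was close to the 3.24 per Mb of lncRNA genes over 100 kb. MEF2C-AS1, antisense to the gene of a neuronal transcription factor, had 2, 3 and 3 peaks in BDNF+Dox, 3, 0 and 1 in BDNF and 5, 1 and 3 in the Naive libraries. SOX2-OT had 3, 1 and 3 in BDNF+Dox, 2, 1 and 2 in BDNF and 5, 0 and 2 in the Naive libraries. LINC01122 had 5, 1 and 2, then 2, 1 and 1, then 2, 0 and 2 in the same order. In all 3 of these genes the groups overlapped.

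CASC15, a lncRNA gene at a neuroblastoma risk locus, had 3, 1 and 2 peaks in BDNF+Dox, 1, 1 and 0 in BDNF and 0, 1 and 1 in the Naive libraries, and LINC-PINT had 1, 1 and 1, then 1, 2 and 1, then 1, 0 and 0. BDNF-AS, antisense to the gene of the factor used for differentiation, had 1, 2 and 1 peaks in BDNF+Dox, 1, 0 and 0 in BDNF and 0, 1 and 0 in the Naive libraries. The groups overlapped in these genes too. The 14 listed genes with no library peak included MALAT1, NEAT1, HOTAIR, MIAT and GAS5. These had 8.78, 22.7, 8.81, 30.05 and 2.18 kb of noncoding-only sequence, so few peaks could fall in them. PVT1, a long lncRNA gene beside MYC, also had 0 peaks in the 9 libraries, over 307 kb of noncoding-only sequence.

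**Figure D5:**
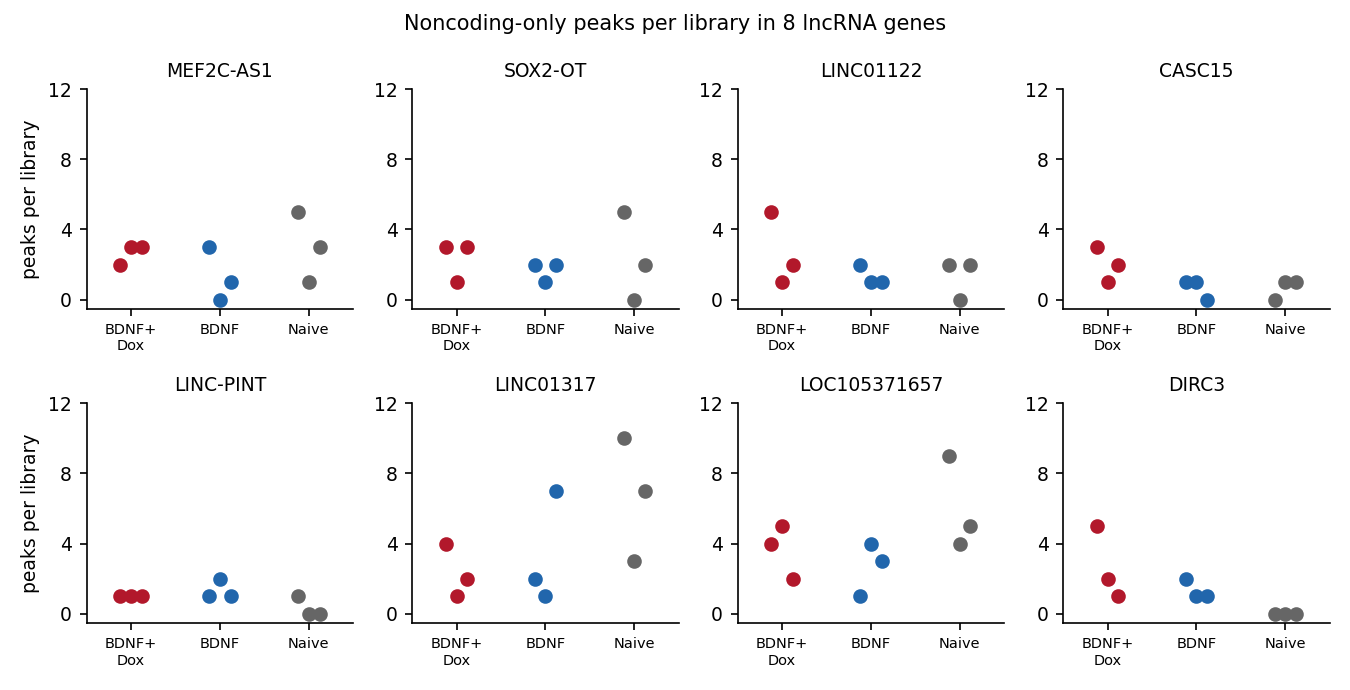
Noncoding-only peaks per library in 8 lncRNA genes, by group (points are libraries). The Naive libraries hold none in DIRC3, while the groups overlap in the other 7 genes.

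Of the microRNA host genes, which carry microRNAs in their transcripts, 13 of 25 (52.0%) had a library peak, against 15.04% of all noncoding genes, with a median of 0.412 peaks per Mb per library and a median length of 34.6 kb. MIR4300HG had 1, 1 and 0 peaks in BDNF+Dox, 1, 1 and 4 in BDNF and 4, 1 and 3 in the Naive libraries. MIR99AHG had 1, 2 and 3, then 0, 0 and 2, then 6, 1 and 0 in the same order, and MIR100HG 1, 1 and 1, then 0, 0 and 2, then 1, 3 and 1. Of imprinted noncoding genes, which are expressed from the copy of 1 parent, 4 of 14 (28.6%) had a library peak, with a median density of 0 and a median length of 7.25 kb. SNHG14, the long transcript of the Prader-Willi region, led with 1, 2 and 0 peaks in BDNF+Dox, 2, 0 and 0 in BDNF and 0, 1 and 1 in the Naive libraries, and MEG3 had none.

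Small and structural RNA genes together held 0.569 Mb of noncoding-only sequence, with 1.76 ± 1.76 peaks per Mb (SD, n = 9 libraries), so few peaks could fall in them. A noncoding-only peak overlapped 2 of 541 microRNA genes, 3 of 511 small nucleolar RNA genes, and 0 of 339 transfer RNA, 0 of 106 small nuclear RNA and 0 of 45 ribosomal RNA genes, in 1 library each. Both microRNA genes are shown by their mature sequence from RefSeq, with the seed, bases 2 to 8, in capitals.
hsa-miR-4652-5p: aGGGGACUgguuaauagaacua
hsa-miR-4652-3p: gUUCUGUUaacccauccccuca
hsa-miR-8078: gGUCUAGGcccggugagagacuc
The 3 seeds differ. MIR4652 (chromosome 7, 93716928 to 93717005) had a peak in BDNF+Dox replicate 3 (fold 3.30) and MIR8078 (chromosome 18, 112256 to 112339) in BDNF replicate 1 (fold 2.11), both with a q of 1.

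A second kind of list set the merged reads of BDNF+Dox directly against those of BDNF and of Naive. These lists report gains in BDNF+Dox only and carry no spread between replicates. The list over BDNF held 1345 noncoding-only peaks of 9467, whose folds in the authors' deposited table had a median of 2.76, and 16 (1.19%) had q of 0.05 or less against 0.803% of all its peaks. The list over Naive held 1076 of 7579, whose folds in the authors' deposited table had a median of 2.78, and 10 (0.929%) had such a q against 0.99%. At q of 0.01 or less the authors' deposited table held 8 noncoding-only peaks over BDNF (0.595%, against 0.296% of all peaks in that list) and 2 over Naive (0.186%, against 0.343%). At q of 0.1 or less the authors' deposited table held 39 over BDNF (2.90%, against 1.92%) and 17 over Naive (1.58%, against 1.94%). A peak of a BDNF+Dox library overlapped 17.3% of the noncoding-only peaks over BDNF and 17.8% of those over Naive.

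Over BDNF, the strongest peak in the authors' deposited table was at chr15:84456526-84456836 in LOC105370946 and LOC102724135, with a fold of 5.26 and q = 2.2e-08. Called singly, 2 of 3 BDNF+Dox libraries and 0 of the other 6 had a peak at this place. The authors' deposited table over Naive gave it a fold of 2.02 and q = 1. FRG1EP, a pseudogene with near-identical copies, followed at chr20:29494830-29495008 where the authors' deposited table gave a fold of 5.59 with q = 9.67e-08, and no library had a peak there. LOC105375416, LOC102724858, LINC01619, the pseudogene CTBP2P9, LOC107986901 and LINC01339 came next in the authors' deposited table, with q from 0.00059 to 0.00951. GDNF-AS1, antisense to the gene of a neurotrophic factor, and LOC101928688 both had q = 0.0212 in the authors' deposited table, with folds of 4.15 and 3.86.

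Over Naive, OR2A1-AS1, antisense to an olfactory receptor gene, led at chr7:144302530-144302767 where the authors' deposited table gave a fold of 4.70 with q = 1.84e-05, and 1 BDNF+Dox library had a peak there. LINC01619, at chr12:92116693-92116898, was listed in the authors' deposited table at 4.40-fold over Naive (q = 0.0026) and 4.38-fold over BDNF (q = 0.00518), and 0 of 9 libraries had a peak there. LMCD1-AS1 was also under q of 0.05 in both lists of the authors' deposited table, with folds of 3.72 over Naive and 3.86 over BDNF. The lists share the BDNF+Dox reads, so these are not separate measurements. PDE4DIPP5, LOC105372361, LOC124900167, LOC124901056, LOC105378797, LOC105370601 and the T cell receptor beta locus TRB made up the rest of the 10 over Naive, with q from 0.0131 to 0.0485 in the authors' deposited table.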

How the data were processed

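Trimming used cutadapt 1.1 and Trimmomatic 0.32 and alignment to GRCh38 used Bowtie, per the submitters' processing notes, and the version of Bowtie is not given in the sources used here. MACS2 2.2.7.1 made the peak lists, per the submitters' processing notes. Per the file headers, narrow peaks were called at p of 0.01, each library against the Input and merged BDNF+Dox over merged BDNF and Naive. The deposited files give each peak's length in bp, pileup signal, −log10 p, −log10 q and fold ratio, all the authors' own. Although q is said to be left uncalculated in the headers, the deposited column is filled and was used as given. Peak lists hold no read counts, so depth is that of the headers and no interval for a peak was computed.

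From these, peaks were sorted into noncoding-only, protein-coding and intergenic by RefSeq gene spans (GRCh38.p14), with python 3.11.15, numpy 2.4.6 and pandas 2.3.3. Groups came from the labels. Group tests permuted all assignments, and tests within libraries flipped signs over 512 patterns. The tests were checked on simulated data. Replicate numbers pair nothing in the labels, and the block is given with the alternatives. The biotype of immune receptor and similar compound loci is not protein-coding, so they count as members. The members, lists and tests were chosen with earlier results of these data known. Genes named were the 10 with the strongest pooled peak per list, those of the 15 most shared regions, the 10 with most peaks, up to 6 per list, and any miRNA, snoRNA, snRNA, tRNA or rRNA gene with a peak in 2 libraries (none). DIRC3, LINC02794, LINC01982, NBPF13P, BDNF-AS, the listed genes without a peak, MIR4652, MIR8078 and the start regions were chosen after their values were seen, as were the tests by gene length, class and long-gene ends. Results for some genes that these rules name are not reported here.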

Additional observations from a re-analysis of the deposited data

Results flagged for a closer look

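Chromosome X lies outside the 22 chromosomes analysed above. It held 343 noncoding-only peaks by the same rule, of 3996 peaks on that chromosome in the 9 libraries, with 62, 38 and 24 in BDNF+Dox, 41, 25 and 24 in BDNF and 55, 36 and 38 in Naive libraries. It is given here as signal in data that no comparison used. Groups of 3 are too small for the test of a single distant sample.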

How the results depend on the processing

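Of 483 recomputed values, 444 stayed the same and 39 did not: 18 moved, 14 reversed, 6 became weaker and 1 stronger. A count moved when it left a set range around its main value. Tests over all groups were compared by side of the p threshold alone, and the other tests by sign as well. The higher density than in protein-coding spans held in every alternative run on the 9 libraries, while the pooled lists had the other order. The shortage at gene ends held too, except in long lncRNA genes (-0.337 percentage points). Over intergenic sequence the log2 ratio was 0.0468 without pseudogenes and 0.0547 with RNA genes only. With equal peak numbers per library, BDNF+Dox minus BDNF was -0.0100 for log10 number, -0.00239 for log10 length and 0.0871 for median fold. The share, BDNF+Dox minus BDNF, was 0.324 percentage points at −log10 p of 5 or more, and the median fold, BDNF minus Naive, 0.00284 with RNA genes only. These changed sign without passing a threshold, and the cause was not tested. LINC density relative to intergenic, minus 1, was 0.0645 with a 10 kb flank. Regions in 3 or more libraries numbered 11 when merging needed an overlap of 50% of the shorter peak and 9 with equal peak numbers. At q of 0.01 the pooled lists held 8 peaks over BDNF and 2 over Naive, and at q of 0.1 they held 39 and 17.

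With 1 library left out, log10 number, BDNF+Dox minus Naive, ranged from -0.101 to 0.0534 and log10 length from -0.115 to 0.0403. The share, BDNF minus Naive, ranged from -0.449 to 0.0946 percentage points and the median fold from -0.0474 to 0.0233. Regions in 3 or more libraries numbered 11 to 17. Regions in all libraries of 1 group and none of another numbered 5 to 22, since the reduced group then needs 2 libraries. Density in lncRNA genes of 20 to 100 kb, minus 1, ranged from -0.0452 (without BDNF+Dox replicate 3, exact permutation p = 0.0469) to -0.0200. The unadjusted antisense p ranged from 0.0179 to 0.0643 (exact permutation).

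With the replicate number as a block, the exact permutation p over the groups was 0.167 for number, 0.194 for share, 0.194 for length and 0.25 for fold, and no call changed. Same-numbered libraries had correlations of deviations from -0.0410 to 0.0233. Only 2.4% of all regions had a peak in 2 or more libraries, so these values could lie near 0 with or without pairing. They do not settle whether the numbers pair libraries. The threshold of −log10 p of 5 was run for number and share only. The permissive peak threshold and a depth of 17164402 to 18928589 reads limit what single peaks show.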
